A study of Rattus norvegicus with 4 samples.

Results

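Genes of the cell cycle and of DNA replication were followed in 4 mammary cancers of Sprague-Dawley rats. The animals were females of this outbred stock, and carbon ions had been given to the whole body. The dose was 0.5 Gy at an age of 7 weeks (290 MeV/u, 6-cm SOBP, the spread-out Bragg peak in which the dose is delivered), and an AIN-76A diet with 23.5% corn oil was fed from 9 weeks on. All 4 cancers share irradiation and diet, and they form 1 group. No unirradiated tumour or normal gland is analysed here, and the values below describe differences between irradiated tumours, not an effect of radiation or diet. The labels do not say whether the cancers came from separate rats, and each was measured on 1 single-colour array. The gene list holds 45 members, 30 with a role in mitosis and 15 with a role in S phase. The members were chosen by name, and every probe set that the platform annotation gives to exactly 1 of them was used. This gave 59 probe sets for 42 members, out of 14217 genes named on the array. Tpx2, a spindle assembly factor, and Cdc6, which helps load the replicative helicase, had no probe set of their own in the annotation used. Rrm2, the small subunit of ribonucleotide reductase, shared its 2 probe sets with Rrm2l1 and was left out.

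Dividing cells transcribe these genes in waves. E2F transcription factors switch on the enzymes that make DNA and its building blocks as cells enter S phase, and the proteins that condense, capture and separate chromosomes follow in G2 and M phase under B-Myb, Foxm1 and the MuvB complex. Cells that leave the cycle shut both waves down, partly through the DREAM complex, which in human and mouse cells binds the CHR element of mitotic promoters. The summed level of such transcripts is widely used as a proliferation index of mammary cancer. In bulk tissue, fewer dividing cells and less RNA per dividing cell cannot be told apart.

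Values are log2(signal + 16) of the deposited intensities, on which a step of 1 stands for 2-fold in bright genes and for more than that in dim ones. Where a gene had several probe sets, the brightest was used. A gene is called expressed when its mean over the 4 tumours reached the median of all probe sets (7.81 log2, a signal of about 209), which held for 9403 genes and for 39 members, 28 mitotic and 11 S-phase. Ttk, Gins1 and Tyms fell short of it. The shift of a gene in a tumour is its value minus the mean of the other 3 tumours. Tumours were not measured in replicate, no p-value can be had, and the only error available is the spread between probe sets of 1 gene. The arrays had been scaled to a common level, and the median shift of all expressed genes was -0.04, 0.04, 0.03 and -0.02 in tumours 1 to 4. The log2 ratio of 3' over 5' signal in tumour 2 was 0.04 for the GAPDH control, against -0.02 to 0.03 in the other tumours, and 0.30 for the beta-actin control, against 0.30 to 0.48. All 8 epithelial markers were expressed, with Epcam, an epithelial adhesion molecule, at 12.89, 13.23, 13.70 and 13.39 and the luminal keratin gene Krt8 at 12.43, 13.15, 13.25 and 13.18 in tumours 1 to 4. The basal keratin genes differed from this, with Krt5 at 12.94, 12.82, 12.83 and 13.09 and Krt14 at 12.39, 11.34, 8.24 and 11.45, lowest in tumour 3.

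The mitotic members stood highest in tumour 2, while the S-phase members followed it to a smaller extent and in part were highest in tumour 4, mostly narrowly. The median shift of the 28 expressed mitotic members was -0.18, 0.58, -0.14 and -0.30 log2 in tumours 1 to 4. That of the 11 expressed S-phase members was -0.12, 0.21, -0.11 and 0.07, the last of which was -0.01 with the dim members included and so had no settled sign. The mitotic median therefore lay above the S-phase median by 0.37 in tumour 2 and differed from it by -0.37 in tumour 4, by -0.05 in tumour 1 and by -0.03 in tumour 3. The negative mitotic medians of tumours 1 and 3 rested on tumour 2, and without it the medians of tumours 1, 3 and 4 were 0.02, 0.01 and -0.15. The mitotic minus S-phase difference without tumour 2 was 0.11, 0.06 and -0.33 in tumours 1, 3 and 4. Tumour 2 held the highest value of 25 of 28 mitotic and 7 of 11 S-phase members, where 26.4% of all expressed genes were highest in that tumour. Tumour 4 was highest for 1 mitotic and 4 S-phase members (21.1% of all expressed genes), and lowest for 15 mitotic and 2 S-phase members (25.1% of all expressed genes). Its lead over the next tumour in those 4 S-phase members was 0.59 for Mcm5, 0.18 for E2f1, 0.12 for Mcm3 and 0.0016 for Rrm1. Tumour 1 was highest for 2 mitotic members (28.0%), and tumour 3 for none of the 39 (24.5%).

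The lead of tumour 2 was moderate. Against tumours 1, 3 and 4 its mitotic members were higher by a median of 0.57, 0.46 and 0.63 log2, which is 1.49-fold, 1.37-fold and 1.55-fold. The corresponding medians of the S-phase members were 0.20, 0.28 and 0.16, and those of all expressed genes 0.06, 0.01 and 0.04. Of the 39 expressed members, 37 had a shift above 0 in tumour 2, against 55.6% of all expressed genes. In 17 of 28 mitotic and 2 of 11 S-phase members the shift in tumour 2 reached 0.5 log2, as it did in 4.47% of all expressed genes, and no member reached 1 log2 (0.787%). Among the 25 mitotic members highest in tumour 2, the gap to the next tumour had a median of 0.45, and it was at least 0.5 in 7 of them. Among the 7 S-phase members it had a median of 0.07 and ran from 0.00 for Mcm6 to 0.53 for Mcm2, so the first place of tumour 2 was narrow for most of these. Among tumours 1, 3 and 4 the mitotic members had a median range of 0.33, against 0.40 for all expressed genes, and the range ran up to 0.88 for Kif2c, 0.62 for Pttg1 and 0.58 for Cdc20. The median difference was -0.11 between tumours 4 and 1 and -0.12 between tumours 4 and 3.

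**Figure D1:**
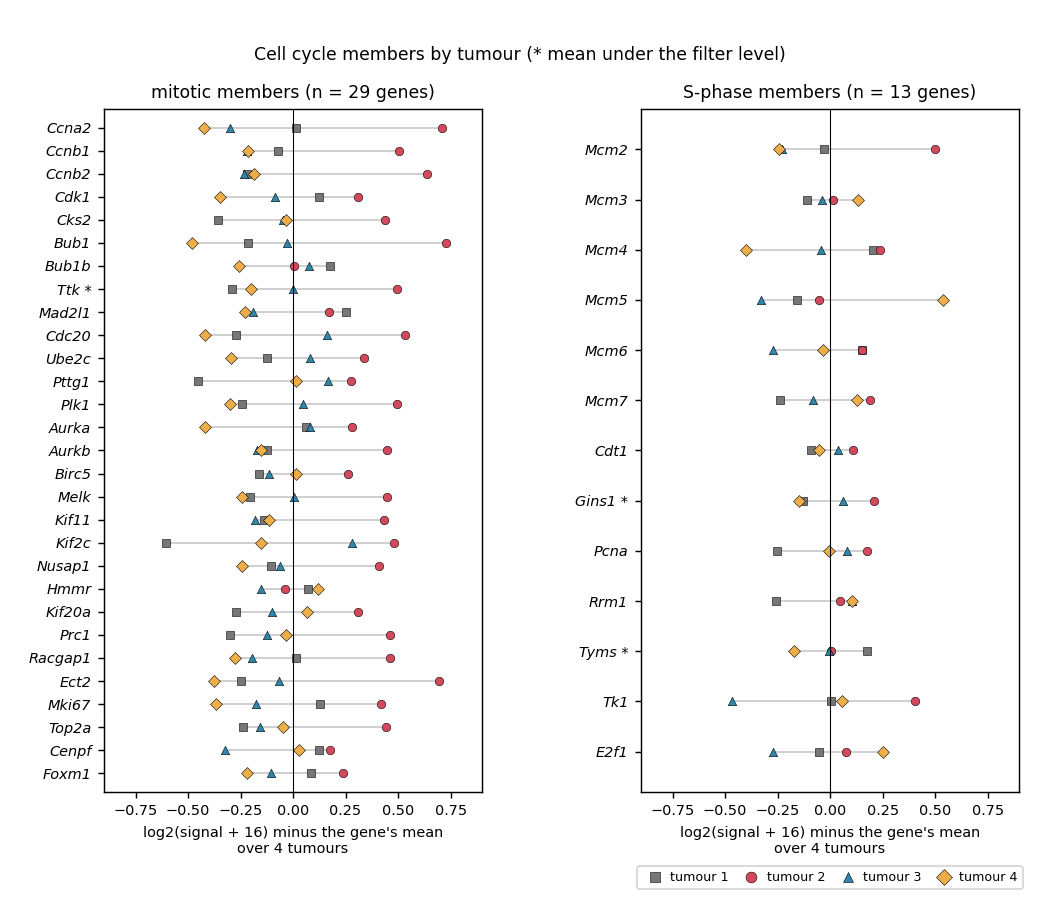
Each row is a member gene, with mitotic members on the left and S-phase members on the right, and each symbol is 1 tumour, placed by its log2(signal + 16) minus the gene's mean over the 4 tumours; an asterisk marks a gene whose mean was under 7.81. Tumour 2 (circles) lies at the right end of 26 of 29 mitotic rows and of 8 of 13 S-phase rows, while Mcm5, Mcm3, Rrm1, E2f1 and Hmmr end with tumour 4 (diamonds).

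**Figure D2:**
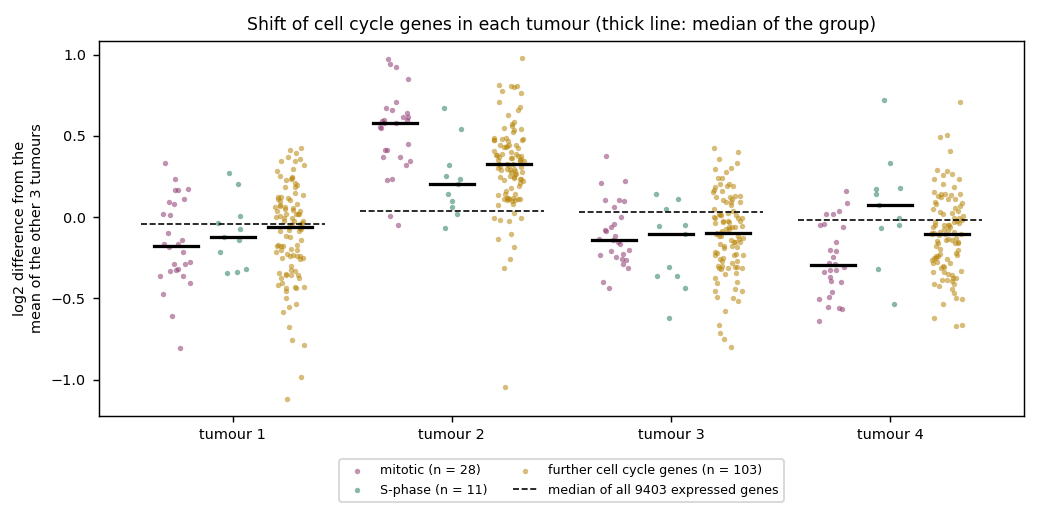
For each tumour the points are genes, placed by their shift on the log2 scale, for 28 mitotic members, 11 S-phase members and 103 further cell cycle genes; thick lines are group medians and the dashed line is the median of all 9403 expressed genes. In tumour 2 the medians lie at 0.58, 0.21 and 0.33, above the dashed line at 0.04, and in tumour 4 the mitotic median (-0.30) lies under the S-phase median (0.07).

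The 2 classes were also set side by side by the letters of their promoters, which the choice of members did not use. RefSeq promoter windows of assembly GRCr8 were at hand for 35 of the 45 members, 24 mitotic genes with 25 windows and 11 S-phase genes with 11 windows. The 250 bases before the start were searched on both strands for the CHR letters TTTGAA, for CCAAT, which the factor NF-Y binds, and for the E2F-type letters TTTGGCG or, with another middle base, TTTCGCG, or else the core GCGGGAA, with overlaps allowed. CHR letters stood in 11 of 25 mitotic windows (44.0%) and 1 of 11 S-phase windows (9.09%), against 10.2% of 8712 windows of expressed genes and 16.2% of all 33469 windows. CCAAT stood in 72.0% of mitotic and 63.6% of S-phase windows, against 35.5% of windows of expressed genes and 34.0% of all windows. E2F-type letters stood in 1 of 25 mitotic windows (4.00%), that of Cdk1, and 7 of 11 S-phase windows (63.6%), against 9.85% and 5.00%. CHR and CCAAT letters stood together in 11 mitotic windows and no S-phase window, against 3.96% of windows of expressed genes. Windows were not matched on base composition, and a match is a description of the letters, not a binding site.

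**Figure D3:**
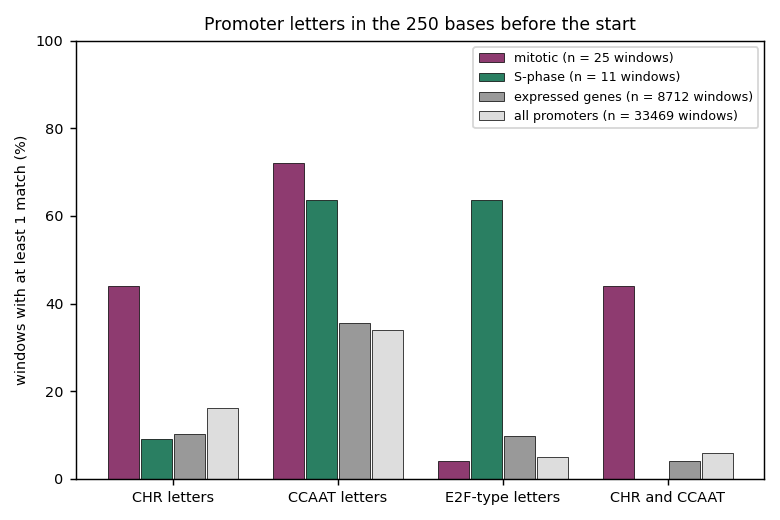
Bars give the share of promoter windows, in percent, with at least 1 match in the 250 bases before the start, for 25 mitotic windows, 11 S-phase windows, 8712 windows of expressed genes and all 33469 windows. CHR letters were found in 44.0% of mitotic windows and E2F-type letters in 63.6% of S-phase windows, while CCAAT was common to both classes.

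The 150 bases before the start are shown for the member with the largest range (Bub1), for the 4 mitotic members with the largest range that hold both CHR and CCAAT letters there, and for the 3 S-phase members with the largest range that hold E2F-type letters. They were picked after the search to show how the 2 kinds of promoter read. Capitals mark the CHR, CCAAT and E2F-type letters on either strand, and neighbouring matches can overlap. In Cdc20, Ccnb2, Cks2 and Mki67 a CCAAT match lies upstream of a CHR match, while the window of Bub1 holds none of the letters searched. Cdc20 and Mki67 also hold a CCAAT match downstream of a CHR match.
Bub1, chr3:135504922-135505071, minus strand: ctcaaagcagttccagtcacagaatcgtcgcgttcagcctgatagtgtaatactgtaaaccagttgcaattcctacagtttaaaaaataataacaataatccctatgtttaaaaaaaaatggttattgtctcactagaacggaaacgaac
Cdc20, chr5:137255800-137255949, minus strand: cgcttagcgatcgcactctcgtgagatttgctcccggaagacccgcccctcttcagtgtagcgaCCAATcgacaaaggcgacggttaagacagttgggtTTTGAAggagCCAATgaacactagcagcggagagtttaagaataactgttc
Ccnb2, chr8:79981659-79981808, minus strand: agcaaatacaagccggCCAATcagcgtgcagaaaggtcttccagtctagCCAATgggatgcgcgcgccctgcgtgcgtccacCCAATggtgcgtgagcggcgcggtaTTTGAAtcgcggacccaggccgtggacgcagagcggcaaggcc
Cks2, chr17:13727520-13727669, minus strand: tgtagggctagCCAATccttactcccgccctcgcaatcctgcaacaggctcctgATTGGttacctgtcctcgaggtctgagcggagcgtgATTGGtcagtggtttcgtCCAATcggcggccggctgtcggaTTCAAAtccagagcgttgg
Mki67, chr1:199952594-199952743, minus strand: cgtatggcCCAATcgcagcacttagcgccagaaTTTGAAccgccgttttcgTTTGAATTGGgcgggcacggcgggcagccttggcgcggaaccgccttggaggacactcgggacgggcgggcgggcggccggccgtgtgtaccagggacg
Mcm5, chr19:13488663-13488812, plus strand: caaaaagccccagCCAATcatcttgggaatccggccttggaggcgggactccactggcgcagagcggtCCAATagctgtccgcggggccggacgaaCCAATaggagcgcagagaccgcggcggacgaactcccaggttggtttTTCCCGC
Mcm2, chr4:122918095-122918244, minus strand: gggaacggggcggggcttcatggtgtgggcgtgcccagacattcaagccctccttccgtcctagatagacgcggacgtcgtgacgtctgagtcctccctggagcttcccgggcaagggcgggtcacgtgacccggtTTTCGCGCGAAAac
Mcm6, chr13:42404353-42404502, minus strand: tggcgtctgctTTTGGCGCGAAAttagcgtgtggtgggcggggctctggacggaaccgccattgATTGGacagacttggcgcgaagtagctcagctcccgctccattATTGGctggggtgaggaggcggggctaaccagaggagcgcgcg

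Cyclins, Cdk1 and its partners were highest in tumour 2 for all 5 members, with a median shift of 0.67 log2 there. Ccna2, cyclin A2, which drives S phase and entry into mitosis, measured 9.01, 9.70, 8.69 and 8.57 in tumours 1 to 4. Its range of 1.13 between tumours 2 and 4 is 2.19-fold. Ccnb2, cyclin B2, whose promoter is shown above, measured 9.17, 10.03, 9.16 and 9.20, so tumours 1, 3 and 4 lay within 0.05 of each other and tumour 2 stood 0.82 above the next. Ccnb1, cyclin B1, measured 9.48, 10.06, 9.33 and 9.34 on its brighter probe set. The other gave 8.67, 8.65, 8.53 and 8.27 and put tumour 1 marginally first. Cdk1, the kinase these cyclins activate, spread less, at 10.21, 10.39, 10.00 and 9.74, with tumour 4 lowest. Cks2, a small subunit that docks Cdk1 to its substrates, measured 9.43, 10.22, 9.74 and 9.75, with tumour 1 lowest.

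The spindle checkpoint genes did not move as a unit. Bub1, a kinase that recruits checkpoint proteins to unattached kinetochores, had the largest range of all members, 1.21, with 7.98, 8.92, 8.16 and 7.71 in tumours 1 to 4, and tumour 2 led by 0.76. Its paralogue Bub1b, which encodes the inhibitor BubR1, measured 8.03, 7.86, 7.93 and 7.60, with a shift of only 0.01 in tumour 2. Mad2l1, the Mad2 protein that inhibits Cdc20, measured 8.38, 8.30, 7.94 and 7.90, with tumours 1 and 2 above tumours 3 and 4. The 2 dimmer probe sets of Mad2l1 put tumour 2 first, by at most 0.10 over the next tumour. Ttk, the kinase Mps1 at the top of the checkpoint, was under the expression filter at 7.28, 8.07, 7.57 and 7.37. All 4 genes had a shift below 0 in tumour 4, as did 4941 of all 9403 expressed genes.

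Of the genes around the anaphase-promoting complex, Cdc20, its activator, measured 8.63, 9.43, 9.06 and 8.48, so tumours 2 and 3 lay above tumours 1 and 4. Its second probe set also put tumour 2 first, at 8.54, 9.02, 8.19 and 8.63, but there tumour 3 was lowest. The 3 dim probe sets of Cdc20, under the filter level, gave 6.68, 7.02, 7.05 and 6.94, then 6.26, 6.58, 6.61 and 6.37, and last 5.91, 5.82, 5.73 and 5.44. None of these put tumour 2 first. Ube2c, the ubiquitin-conjugating enzyme of the complex, and Pttg1, the securin that it destroys, were likewise highest in tumour 2, by 0.26 and 0.11 over tumour 3. Pttg1 was lowest in tumour 1, with a shift of -0.61.

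The group of mitotic kinases and passenger complex genes was highest in tumour 2 for all 5 members, with a median shift of 0.60. Aurkb, the kinase of the chromosomal passenger complex, measured 8.85, 9.42, 8.80 and 8.82, and its partner Birc5, survivin, measured 8.74, 9.17, 8.79 and 8.92. Tumours 1, 3 and 4 lay within 0.05 of each other for Aurkb and within 0.17 for Birc5. Plk1, Polo-like kinase 1, and Melk had shifts of 0.66 and 0.60 in tumour 2, and Aurka, the spindle pole kinase, one of 0.37. Aurka was lowest in tumour 4, with a shift of -0.56.

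Among the spindle proteins, Kif2c, a kinesin that depolymerises microtubules at centromeres, had a range of 1.08, at 8.49, 9.58, 9.38 and 8.94 in tumours 1 to 4. Its second probe set, also above the filter level, gave 7.87, 8.28, 8.29 and 8.70 and put tumour 4 first. The 2 probe sets share only that tumour 1 is lowest. Kif11, the motor that pushes spindle poles apart, measured 8.69, 9.26, 8.65 and 8.71, but its dim probe set (7.29, 7.36, 6.85 and 7.43) did not set tumour 2 apart. Nusap1, which bundles spindle microtubules, measured 9.51, 10.02, 9.55 and 9.37, and both of its probe sets were highest in tumour 2. Hmmr, a spindle protein and hyaluronan receptor, had the smallest range of the mitotic members, 0.27, at 8.35, 8.24, 8.13 and 8.40, and tumour 4 was highest on both probe sets.

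All 4 cytokinesis genes were highest in tumour 2, with a median shift of 0.62. Ect2, the exchange factor that activates RhoA at the cleavage furrow, measured 9.30, 10.24, 9.48 and 9.17, and tumour 2 led by 0.76. Racgap1, its binding partner, measured 10.04, 10.49, 9.84 and 9.76. Prc1, which bundles the midzone, and the kinesin gene Kif20a had shifts of 0.62 and 0.41 in tumour 2 and were lowest in tumour 1.

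The general proliferation markers gave different runners-up. Mki67, which encodes the Ki-67 antigen, measured 10.08, 10.37, 9.78 and 9.59, a range of 0.78, so tumour 1 came second. Top2a, topoisomerase II alpha, measured 9.99, 10.68, 10.08 and 10.19, so tumour 1 came last, and its second probe set gave the same first and last place (9.06, 9.81, 9.31 and 9.32). Cenpf, a kinetochore protein of G2 and M phase, was nearly level between tumours 1, 2 and 4, at 9.43, 9.48 and 9.34, and lower in tumour 3, at 8.98. Foxm1, the transcription factor of the mitotic wave, measured 8.26, 8.42, 8.07 and 7.96, a range of 0.46 beside a median of 0.70 over the mitotic members. Its other probe set was dim and highest in tumour 1 (6.14, 5.26, 5.16 and 5.24).

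The 6 helicase subunits, which form a single ring in the cell, differed in which tumour was highest. All 6 had a shift below 0 in tumour 3, from -0.44 for Mcm5 to -0.05 for Mcm3, against 45.6% of all expressed genes. Mcm2 was highest in tumour 2, at 9.85, 10.38, 9.65 and 9.64, with a shift of 0.67 in tumour 2. Mcm5 had the largest range of the 6, 0.87, at 8.81, 8.92, 8.64 and 9.51. It was highest in tumour 4 by 0.59, with a shift of -0.07 in tumour 2. Mcm4 was level in tumours 1 and 2 and lowest in tumour 4, at 9.98, 10.02, 9.74 and 9.38. In tumour 4 the shifts of Mcm4 and Mcm5 were thus -0.53 and 0.72. Mcm6 measured 9.99, 9.99, 9.57 and 9.80, and Mcm7 measured 10.74, 11.17, 10.90 and 11.11. Mcm3 was nearly flat, at 9.42, 9.54, 9.49 and 9.66. Each of the 6 had 1 probe set, so no second probe set bears on these differences.

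Of the genes of origin loading and firing, Cdt1, which brings the helicase to origins, had the smallest range of all members, 0.20, at 8.82, 9.02, 8.95 and 8.86. Gins1, a subunit of the active helicase, was under the filter at 7.45, 7.78, 7.64 and 7.43. Pcna, the sliding clamp of DNA polymerases and the brightest S-phase probe set, measured 11.68, 12.11, 12.02 and 11.93. Its range of 0.43 is 1.35-fold, and tumour 1 was lowest. E2f1, the factor of the S-phase wave, measured 8.38, 8.50, 8.16 and 8.68, and was highest in tumour 4 and lowest in tumour 3.

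The genes of nucleotide supply differed from each other as well. Tk1, thymidine kinase 1, measured 9.10, 9.50, 8.63 and 9.15, and all 3 of its probe sets were highest in tumour 2. Rrm1, the large subunit of ribonucleotide reductase, measured 9.01, 9.32, 9.38 and 9.38, so tumours 2, 3 and 4 were level and tumour 1 was lower by 0.30 or more. Tyms, thymidylate synthase, was under the filter at 7.58, 7.41, 7.40 and 7.23.

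Of the 39 expressed members, 4 had a range of at least 1 log2, which is 10.3% and close to the 12.4% of all expressed genes. These were Bub1, Ccna2, Kif2c and Ect2, all mitotic. Without tumour 2 no member had such a range, and without tumour 4 the number was 2. The median range was 0.70 for mitotic and 0.43 for S-phase members, against 0.47 for all expressed genes, so the S-phase members spread between tumours about as much as the median gene.

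Separate probe sets of a gene share RNA and array, and they measure error only at the level of probes. Among 12 members with at least 2 probe sets, 17 pairs could be formed with the brightest. Pairs of 1 gene share its brightest probe set and are not separate evidence, and Cdc20 alone has 5 probe sets. The shift in tumour 2 had the same sign in 14 of the 17, and the same tumour was highest in 8. In most pairs it was smaller on the further probe set, as for Ccnb1 (0.67 against 0.16) and Kif11 (0.58 against 0.17). It was larger there only for Mad2l1, Hmmr and the brighter further probe set of Tk1. In the 8 pairs with both probe sets above the filter level the same tumour was highest in 6, the exceptions being Ccnb1 and Kif2c. The root mean square difference between the centred profiles of such a pair had a median of 0.21 log2. Of the 32 members highest in tumour 2, 21 led the next tumour by at least 0.21, the median SD of expressed genes, 19 of them mitotic and 2 S-phase. Of all 59 probe sets, 43 were highest in tumour 2, 37 of 47 above the filter level and 6 of 12 under it.

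**Figure D4:**
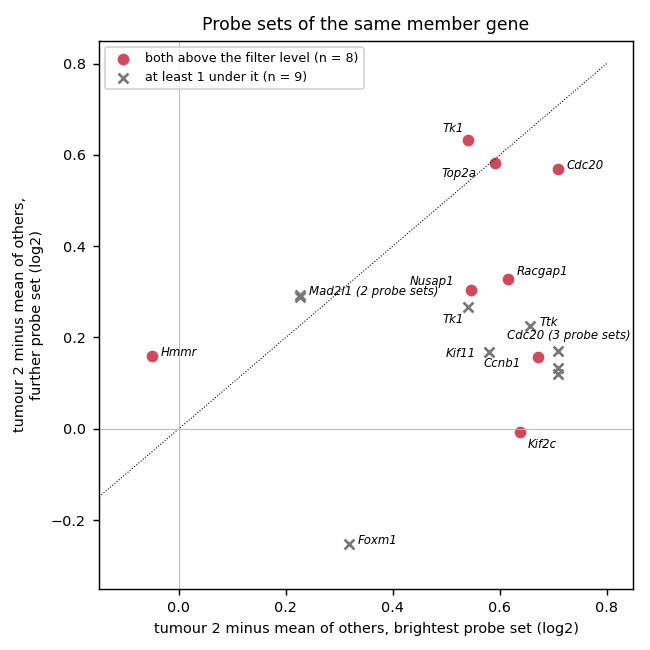
Each point is a pair of probe sets of 1 member gene, with the shift of tumour 2 (log2, tumour 2 minus the mean of the other 3) on the brightest probe set along x and on a further probe set along y; the dotted line marks equal values. Of the 17 points, 14 have the same sign on both axes, and Kif2c, Foxm1 and Hmmr do not. Most points lie under the dotted line, where the shift is smaller on the further probe set.

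The pattern was set beside 162 further cell cycle and replication genes, of which 140 had a probe set and 103 were expressed. This list was chosen with earlier results of these data known and is read on the same arrays, so it is no independent check. Tumour 2 was highest for 76 of the 103, against 26.4% of all expressed genes, and the median shift was -0.06, 0.33, -0.10 and -0.10 in tumours 1 to 4. A range of at least 1 log2 was reached by 8 of the 103, a smaller share than the 12.4% of all expressed genes. Among the 6 genes of largest range, Cdc25b, a phosphatase that activates Cdk1, measured 7.50, 8.85, 8.45 and 8.16 in tumours 1 to 4. Wee1, the kinase that opposes it, measured 9.11, 10.36, 10.27 and 10.06. Both were lowest in tumour 1, by 0.66 for Cdc25b and 0.94 for Wee1, and tumour 2 led the next tumour by 0.40 and 0.10. Uhrf1, which carries DNA methylation through replication, measured 8.62, 9.76, 8.49 and 9.22. The origin recognition subunit gene Orc1 (6.72, 7.41, 6.14 and 6.98) and the kinetochore scaffold gene Knl1 (6.65, 7.27, 6.15 and 6.66) had the same order of tumours as Uhrf1 but were under the filter. E2f2 was the exception, with 7.56 in tumour 2 against 8.66, 8.60 and 8.57 in tumours 1, 3 and 4.

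Genes of quiescence and cell cycle exit were mixed in tumour 2. Of 8 such genes with a probe set, 5 had a shift below 0 there, as did 4179 of all 9403 expressed genes. The median shift of the 8 was -0.11. Cdkn1a, which encodes the Cdk inhibitor p21, was at 9.75 in tumour 2, against 10.19, 10.46 and 10.41 in tumours 1, 3 and 4, while Rb1, the retinoblastoma gene, was highest in tumour 2, at 9.81 against 9.42, 8.93 and 9.02.

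Markers of other cells differed between these tumours as well. Adipocyte markers had their highest summed signal in tumour 2, at 1226 against 474 to 738 in the other tumours. Of the 6, 4 were highest there, against 26.4% of all expressed genes. Adipoq, Lep, Plin1, Fabp4 and Cidec, 5 of the 6, were under the filter level and none was at 0. Endothelial markers had their lowest sum in tumour 2, at 1288 against 1457 to 2073. There 5 of 5 lay below the mean of the others, against 4179 of all 9403 expressed genes. Lymphocyte markers were dim, with 1 of 6 expressed and sums of 773 in tumour 2 against 362 to 939. Epithelial, fibroblast and macrophage sums of tumour 2 lay between those of other tumours, at 50959 (others 39643 to 56720), 37830 (15102 to 48716) and 11334 (8759 to 19759). In tumour 4, where the median shift of the mitotic members was lowest, the fibroblast sum was the lowest of the 4. There 8 of 8 fibroblast markers lay below the mean of the others, against 4941 of all 9403 expressed genes. The part of these cells in the results on cell cycle genes was not tested.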

How the data were processed

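Per the labels' protocols, 8 µg of total RNA from each cancer was primed at the poly(A) tail, which favours 3' ends, and amplified to biotin-labelled cRNA. The deposited values are linear intensity values for 31099 probe sets on each of 4 arrays. Software and background correction are not given in the sources used, and no detection calls were used. The 2% trimmed mean was 500.1 on every array. No 2 arrays held identical values, and precision is limited by the number of arrays. Values were taken as log2(value + 16) with no further scaling between arrays. Probe sets were named from the platform annotation (20826 with 1 gene, 436 with several, left out, and 9831 without an entry), and the gene identifiers of 20758 were found in RefSeq (GRCr8). With 1 group, no test between groups or tumours was run, and no paired analysis was possible. Members and lists were chosen with earlier results of these data known. Every member is accounted for. Those with a range of at least 1 log2, the 3 largest and 3 smallest ranges of each class, 7 well known members, and members whose highest tumour or probe sets disagreed are given by tumour, as are the 6 further genes of largest range. Alternatives were 2 other scalings, pseudocounts of 1 and 64, 2 other filters, averaged probe sets and leaving out each tumour. Dixon's ratio was used only to mark values that stand apart among the 4 tumours. The functions were tested on simulated data. Python 3.11.15, numpy 2.4.6, pandas 2.3.3 and scipy 1.17.1 were used.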

Additional observations from a re-analysis of the deposited data

Results flagged for a closer look

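In each of 42 member genes and 2 class medians, the gap between an extreme tumour and its neighbour was divided by the range of the 4 tumours. In 5 cases the ratio exceeded the 95% critical value of Dixon's test, which chance passes in about 1 in 20 groups. Of the 39 expressed members 4 exceeded it (10.3%), against 529 of all 9403 expressed genes (5.63%). Ccnb2 (0.945), Aurkb (0.926) and Kif11 (0.888) stood apart through a high value in tumour 2, as did the median level of the mitotic members (0.847). Rrm1 stood apart through a low value in tumour 1 (0.832). The dim second probe set of Kif11 did not set tumour 2 apart.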

How the results depend on the processing

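The class medians and counts were recomputed 171 times under other settings, and 141 values were classed as unchanged and 30 as moved. A value classed as unchanged could still change sign, as the mitotic median of tumour 1 did without tumour 2. Mitotic members stayed above the other tumours in tumour 2 under every setting run, with a median shift of 0.45 to 0.65 under the other settings and 0.54 to 0.59 when a tumour was left out. The mitotic minus S-phase difference was 0.24 to 0.38 in tumour 2 and -0.39 to -0.20 in tumour 4 under the other settings. S-phase medians were small and moved more. With arrays shifted to a common median they were -0.21, 0.27, -0.023 and 0.0084 in tumours 1 to 4, and in tumour 4 they were -0.0073 without a filter or with probe sets averaged and -0.027 with the brighter 25% of probe sets. Leaving out a tumour gave S-phase medians of -0.22 to -0.085, 0.14 to 0.21, -0.24 to -0.050 and 0.031 to 0.18. Members highest in tumour 1 numbered 0 with the common median or the brighter probe sets and 1 with quantile normalization or averaged probe sets. Those highest in tumour 3 numbered 2 under both scalings. The brighter 25% of probe sets left 17 members, with 16 highest in tumour 2, 1 in tumour 4 and 1 with a 2-fold range. With a tumour left out, 1 to 13, 32 to 35, 1 to 12 and 5 to 14 members were highest in tumours 1 to 4, and 0 to 4 had a 2-fold range. The extremes of 13, 12, 14 and 0 came from leaving out tumour 2. Without tumour 2 the mitotic medians of tumours 1, 3 and 4 were 0.023, 0.013 and -0.15, and over all omissions they ran from -0.30, -0.24 and -0.39 up to these values. The mitotic minus S-phase difference then ran from -0.18 to 0.11 in tumour 1, -0.013 to 0.064 in tumour 3 and -0.43 to -0.33 in tumour 4, so its sign in tumours 1 and 3 was not settled. Of 1457 recomputed shifts of single genes 80 changed sign, and 3 of these had a size of at least 0.21 to begin with, Bub1 in tumour 1 (0.040) and Ccnb2 in tumour 4 (0.041) without tumour 2, and Mcm5 in tumour 1 (0.031) without tumour 4. Leaving out each tumour gave -0.56 to 0.040 for Bub1, -0.39 to 0.041 for Ccnb2 and -0.40 to 0.031 for Mcm5. Where fewer tumours or genes entered, that is part of the setting, and the cause of the other moves was not tested. No paired analysis was possible because there is only 1 group. No detection calls were used, so how far dim members such as Ttk, Gins1 and Tyms stand above background is not known.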

Other observations

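Of the 103 expressed further cell cycle genes, 11 were highest in tumour 4, a smaller share than the 21.1% of all expressed genes. The 3 described here were chosen after their values were seen, for a role in replication or its checkpoint. They are examples, and the others were Aurkc, Dlgap5, Dtl, Mcm10, Mis18a, Pola1, Pole and Ska2. Rpa1, the large subunit of the protein that coats single-stranded DNA, measured 10.24 in tumour 4, against 9.44, 10.01 and 9.14 in tumours 1 to 3. Topbp1, which acts at origin firing and in checkpoint signalling, measured 9.56 in tumour 4, against 9.34, 9.46 and 8.65. Prim1, the catalytic subunit of primase, measured 10.47 in tumour 4, against 9.99, 10.33 and 10.23. The leads over tumour 2 were small, as for Mcm3 and E2f1 among the members, and unlike that of Mcm5. No second array of any tumour bears on them.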
